A study of Homo sapiens with 6 samples.

Results

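The library titled DOHH2-WT was set against the library titled DAUDI-WT, 1 library against 1, among 6 libraries in all. Per the labels, DOHH2 is a follicular lymphoma line and DAUDI a Burkitt lymphoma line, both obtained from ATCC, and the other 4 libraries are each line made resistant to idelalisib (DOHH2-Cal and DAUDI-Cal) or to ibrutinib (DOHH2-Ib and DAUDI-Ib). The drugs block kinases that relay the signal of the B cell receptor, PI3K delta for idelalisib and BTK for ibrutinib. The WT label marks the cells given no resistance, and each group is 1 culture with no replicate library. The libraries are called by their titles throughout.

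Expression is given as FPKM, fragments set against isoform length and library depth, summed over the isoforms of a gene. Of the 23844 named genes in the tables, 7476 reached 5 FPKM in DOHH2-WT or DAUDI-WT and have an isoform of 300 nt or more. Of these, 6 were left out because an estimate was marked as failed, and 7470 were compared. A gene was counted as differing when log2(FPKM + 1) differed by 1 or more, DOHH2-WT minus DAUDI-WT; adding 1 to the FPKM makes the difference of low genes smaller than their fold. With no replicate library there is no test, and a difference in this pair has no replicate check.

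DOHH2-WT and DAUDI-WT differed at 37 of 7470 genes, which is 0.495%. Of these, 24 were higher in DOHH2-WT (0.321%) and 13 lower (0.174%). The 3 genes with the largest difference, HSPA6, HSPA1A and HSPA1B, all encode inducible HSP70 chaperones. In the other direction were the immediate early genes EGR1 and EGR2, the chemokine genes CCL22 and CXCL10, and RGS18, a regulator of G protein signalling. With 5 added to the FPKM in place of 1, EGR1 stayed past 1, while EGR2, CCL22, CXCL10 and RGS18 fell under it. Of the genes that separated the resistant DOHH2 libraries from the resistant DAUDI libraries, 126 reached 5 FPKM in a WT library. Of these, 3 (2.38%, against 0.495% of all genes) differed by 1 between the WT libraries, PHGDH and PLAC8 among them. The others, such as TCL1A, CD48 and BCL2, did not.

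The heat shock response raises the transcription of chaperone genes when proteins unfold, through the factor HSF1, which binds heat shock elements made of inverted repeats of a GAA unit. Immediate early genes such as EGR1 are transcribed within minutes of a stimulus, without new protein synthesis, in B cells also after engagement of the B cell receptor. Many of them carry a CArG box, the site of serum response factor.

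The promoters of 3 heat shock genes that were higher in DOHH2-WT and of EGR1, which was lower, are shown. Of these, HSPA6 differed most of all genes compared, and EGR1 was the early gene that differed most. Sequences are from RefSeq on GRCh38.p14 and cover the 250 bases before a gene's listed start, on the gene's strand. Capitals mark GAANNTTC or TTCNNGAA in the heat shock genes, which can overlap, and CArG boxes in EGR1. Windows were searched on both strands, and the motifs were chosen after the values were seen. The windows shown for HSPA6, DNAJB1 and SERPINH1 held 3, 2 and 2 matches. Those of HSPA1A, which differed more than DNAJB1 and SERPINH1, and of HSPB1 held 1 each and are not shown. The other listed starts of DNAJB1 and SERPINH1 held 0.
HSPA6 promoter, chr1:161524290-161524539, plus strand: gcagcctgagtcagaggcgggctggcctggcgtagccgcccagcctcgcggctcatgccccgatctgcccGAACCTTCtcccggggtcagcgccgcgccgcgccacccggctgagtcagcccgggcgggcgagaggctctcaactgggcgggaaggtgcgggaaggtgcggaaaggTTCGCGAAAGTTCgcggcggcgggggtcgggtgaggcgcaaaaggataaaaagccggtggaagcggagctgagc
DNAJB1 promoter, chr19:14518398-14518647, minus strand, 1 of 3 listed starts: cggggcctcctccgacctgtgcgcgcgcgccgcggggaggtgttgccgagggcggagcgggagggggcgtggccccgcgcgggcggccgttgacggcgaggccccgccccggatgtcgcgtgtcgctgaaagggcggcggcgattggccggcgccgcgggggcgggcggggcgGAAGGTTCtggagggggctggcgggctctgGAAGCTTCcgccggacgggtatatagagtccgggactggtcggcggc
SERPINH1 promoter, chr11:75562003-75562252, plus strand, 1 of 2 listed starts: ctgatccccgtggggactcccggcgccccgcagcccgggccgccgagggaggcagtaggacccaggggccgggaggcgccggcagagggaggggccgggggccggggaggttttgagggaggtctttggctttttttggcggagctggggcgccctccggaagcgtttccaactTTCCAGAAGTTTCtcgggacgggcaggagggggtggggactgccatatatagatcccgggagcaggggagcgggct
EGR1 promoter, chr5:138465229-138465478, plus strand: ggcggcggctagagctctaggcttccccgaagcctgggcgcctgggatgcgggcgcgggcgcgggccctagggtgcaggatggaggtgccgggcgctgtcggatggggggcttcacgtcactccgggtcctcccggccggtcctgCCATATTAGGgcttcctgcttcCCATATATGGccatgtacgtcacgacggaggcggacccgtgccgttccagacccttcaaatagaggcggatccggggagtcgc

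At least 1 such pair of GAA units was found before a start of 6 of the 6 heat shock list genes that were higher in DOHH2-WT. It was found in 9 of 20 matched members of that list that were compared and did not differ by 1, and in 13.96% of all 27305 genes with a listed promoter. The longer form with 3 units in a row was found in 2 of the 6 genes, HSPA6 and SERPINH1, in 6 of the 20 others, and in 0.557% of all genes. The CArG box was found in 2 of 11 matched genes that were lower in DOHH2-WT, EGR1 and EGR2, and in 1.44% of all genes. It was also found in 1 of 16 matched genes that were higher. The pair of GAA units was found in 9 of these 16 and in 2 of the 11 lower genes (18.2%). A match of letters describes the window and is not evidence of binding.

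The B cell label held for both libraries. All 10 B cell markers were at 1 FPKM or more in each, with MS4A1, the CD20 gene, at 429 FPKM in DOHH2-WT and 435 in DAUDI-WT, and CD79A, a chain of the B cell receptor, at 327 and 267 FPKM. Summed T and NK cell markers were 23.2 FPKM in DOHH2-WT and 18.9 in DAUDI-WT, and the 4 resistant libraries held 20.2 to 35.5. Myeloid markers summed to 33.4 and 32.8 FPKM in the WT libraries in that order, against 31.0 to 112 in resistant ones, and stromal and epithelial markers to 28.9 and 28.0 FPKM, nearly all of it CDH1, against 4.83 to 20.6. Erythroid markers summed to 8.39 FPKM in DOHH2-WT and 0.820 in DAUDI-WT, and 3 of 11 names reached 1 FPKM in DOHH2-WT and 0 of 11 in DAUDI-WT; their part in the differences was not tested. The line labels, in contrast, did not match the genes that separate the resistant lines, as described further on. Depth, read from the steps in which low FPKM values fall, was about 32400000 fragments in DOHH2-WT and 33400000 in DAUDI-WT, so the smallest of the 37 differing genes by fragments had about 86 in its higher library.

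**Figure D1:**
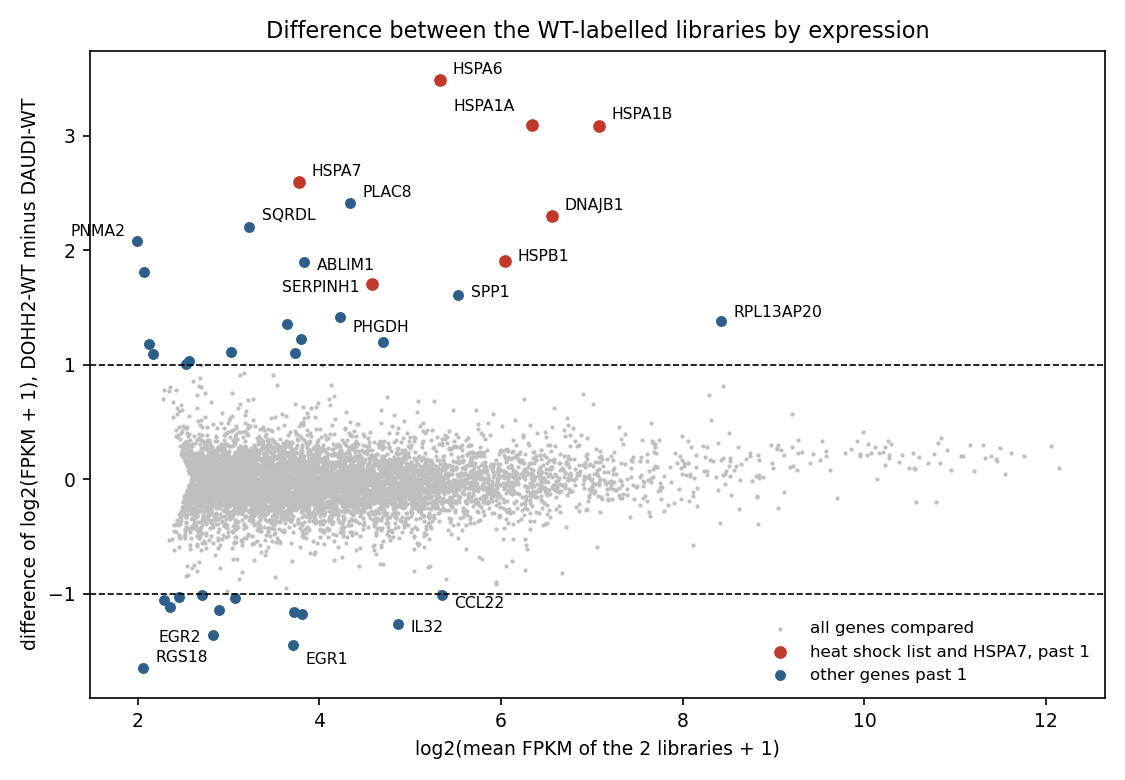
Each point is 1 of 7470 genes, placed by the log2 of its mean FPKM in both WT libraries plus 1 (x axis) and by the difference of log2(FPKM + 1), DOHH2-WT minus DAUDI-WT (y axis). Dashed lines stand at 1 and -1; 6 members of the heat shock list and HSPA7 are red, and the other genes past 1 are blue. The 8 genes past 2 are all on the DOHH2-WT side.

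The spread of the remaining genes was narrow. Of the 7470 genes, 7218 (96.6%) lay within 0.5, the median absolute difference was 0.127 and its 95th percentile 0.445, and the median difference was -0.03. Past 2 there were 8 genes, all higher in DOHH2-WT, and past 3 there were 3. The share that differed depended little on the level: it was 0.615% of 2602 genes under a mean of 10 FPKM, 0.406% of 3205 genes from 10 to 30, 0.463% of 1295 genes from 30 to 100 and 0.543% of 368 genes at 100 or more. The count of 37 became 16 with a pseudocount of 5 and 110 when short isoforms were kept. Just inside the limit was COLCA2, with a difference of 1.005, and just outside was ZFAND2A, itself a gene of the stress response, with 20.8 FPKM in DOHH2-WT and 9.90 in DAUDI-WT and a difference of 0.997.

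The same count was made in other pairs of the series. DOHH2-Ib against DOHH2-Cal, which are labelled as 1 line, differed at 34 of 7611 genes (0.447%), and DAUDI-Ib against DAUDI-Cal at 227 of 7864 (2.89%). Across the line labels, DOHH2-Cal and DAUDI-Cal differed at 1457 of 8195 genes (17.8%), and DOHH2-Ib and DAUDI-Ib at 1828 of 8367 (21.8%). The count between DOHH2-WT and DAUDI-WT was thus of the size seen between resistant libraries of the same label. It was not of the size seen between resistant libraries of different lines. Pairs of a WT and a resistant library differed at more genes than any of these. DOHH2-WT differed from DOHH2-Cal at 2736 of 8533 genes (32.1%) and from DOHH2-Ib at 2588 of 8450 (30.6%). DAUDI-WT differed from DAUDI-Cal at 2630 of 8472 genes (31.0%) and from DAUDI-Ib at 3064 of 8711 (35.2%). Where the labels of such a pair differed, the share was 30.2% to 34.9%. The cause was not tested.

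Heat shock chaperone genes held the largest differences. Of the 33 names on the list 28 were compared, and 6 were higher in DOHH2-WT, 0 lower and 22 neither, against 0.321% of all genes higher; the median over the 28 was 0.14, beside -0.03 over all genes. HSPA6 (chr1:161494036-161496687, hg19), a strictly inducible HSP70, had 72.6 FPKM in DOHH2-WT and 5.57 FPKM in DAUDI-WT, a 13.0-fold ratio and a difference of 3.49. In the 4 resistant libraries HSPA6 was at 0.663 FPKM or less, so DOHH2-WT and DAUDI-WT were both above them. About 6245 fragments stood behind the DOHH2-WT value and 493 behind the DAUDI-WT value. In bulk RNA, fewer cells with a transcript and less of it per cell cannot be told apart.

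HSPA1A (chr6:31783291-31785719) had 144 FPKM in DOHH2-WT and 16.02 FPKM in DAUDI-WT, and HSPA1B, its near-identical neighbour, 241 and 27.5 FPKM. Their ratios were 8.98 and 8.77, and since reads can be shared between these copies, how they divide the signal is uncertain. In the resistant libraries HSPA1A was at 1.002 to 1.80 FPKM and HSPA1B at 1.92 to 3.54. HSPA7, a near-identical relative of HSPA6 that is not on the list, had 22.4 FPKM in DOHH2-WT and 2.88 FPKM in DAUDI-WT, with 2.56 and 2.77 in DAUDI-Cal and DAUDI-Ib and 0 listed in both resistant DOHH2 libraries. Its reads may in part be those of HSPA6.

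DNAJB1 (chr19:14625582-14629201), the HSP40 partner that loads clients onto HSP70, had 156 FPKM in DOHH2-WT and 30.9 FPKM in DAUDI-WT, a 5.05-fold ratio, beside 12.4 to 22.3 in the resistant libraries. HSPB1 (chr7:75931875-75933614), the small heat shock protein HSP27, had 103 FPKM in DOHH2-WT and 26.7 FPKM in DAUDI-WT, a ratio of 3.84. SERPINH1 (chr11:75273101-75283849), the collagen chaperone HSP47, had 35.6 FPKM in DOHH2-WT and 10.2 FPKM in DAUDI-WT, a ratio of 3.49. All 6 listed genes were higher in both WT libraries than in any of the 4 resistant ones.

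The other chaperones graded down from these. HSP90AA1, the inducible HSP90, had 442 FPKM in DOHH2-WT and 250 FPKM in DAUDI-WT, a difference of 0.82. DNAJB4, BAG3, a co-chaperone of HSP70, and HSPH1, the HSP110 exchange factor, differed by 0.81, 0.73 and 0.62 in the same direction, all short of 1. Chaperones that cells make without stress stood close: HSPA8, the constitutive HSC70, had 261 FPKM in DOHH2-WT and 289 FPKM in DAUDI-WT, HSP90AB1 had 399 and 368, and DNAJA1 had 167 in each. HSPA5, the chaperone of the endoplasmic reticulum, had 91.0 FPKM in DOHH2-WT and 78.7 FPKM in DAUDI-WT. HSF1 itself was at 17.1 and 17.4 FPKM, a difference of -0.02.

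**Figure D2:**
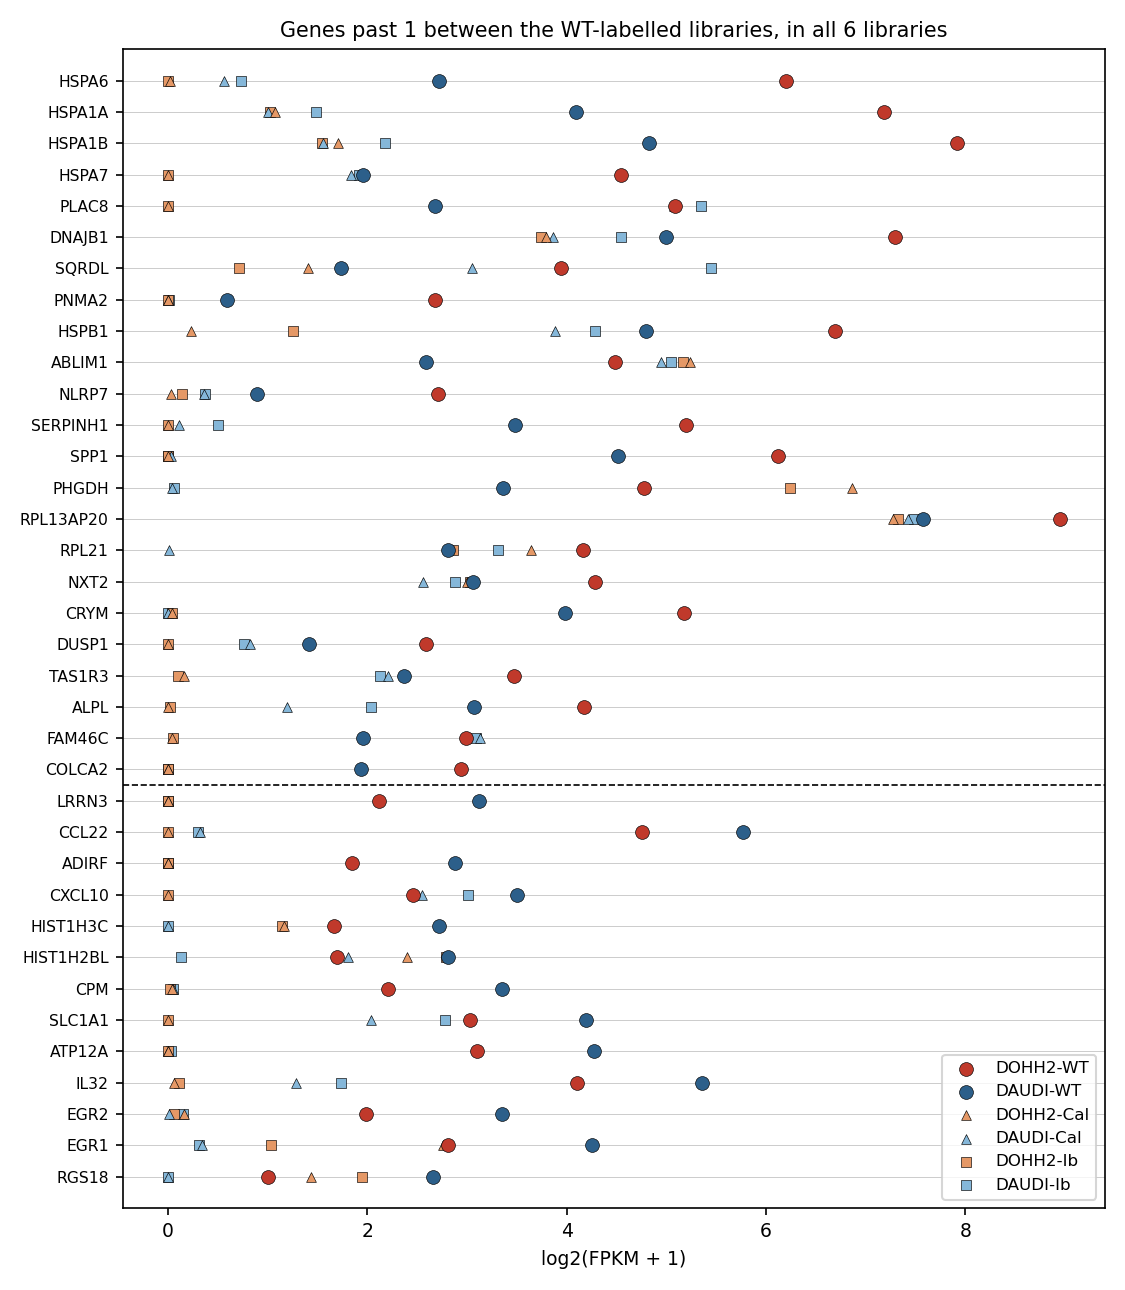
Level of 36 of the 37 differing genes as log2(FPKM + 1) (x axis) in all 6 libraries, with 23 genes higher in DOHH2-WT above the dashed line and 13 lower ones under it. Circles are the WT libraries, triangles and squares the idelalisib-resistant and ibrutinib-resistant ones, in red or orange for DOHH2 and blue for DAUDI; for 27 genes both circles lie to the right of every other symbol.

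The other 17 genes that were higher in DOHH2-WT were spread over other functions. PLAC8 (chr4:84011211-84035911), which encodes a small cysteine-rich protein, had 33.1 FPKM in DOHH2-WT and 5.41 FPKM in DAUDI-WT, a 6.12-fold ratio; both resistant DOHH2 libraries were listed at 0, and DAUDI-Cal and DAUDI-Ib held 32.7 and 39.7. SQRDL, the mitochondrial enzyme that oxidises hydrogen sulfide, had 14.4 FPKM in DOHH2-WT and 2.34 FPKM in DAUDI-WT. ABLIM1, an actin-binding LIM protein, had 21.5 FPKM in DOHH2-WT and 5.02 FPKM in DAUDI-WT, and was above both in the resistant libraries, at 29.9 to 36.6.

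PHGDH, the first enzyme of serine synthesis, had 26.3 FPKM in DOHH2-WT and 9.24 FPKM in DAUDI-WT. It is among the genes that separate the resistant lines most, with 115 and 74.9 FPKM in DOHH2-Cal and DOHH2-Ib, against 0.0298 and 0.0435 in DAUDI-Cal and DAUDI-Ib, so DAUDI-WT held far more of it than either resistant DAUDI library. SPP1, which encodes the secreted phosphoprotein osteopontin, had 68.4 FPKM in DOHH2-WT and 21.8 FPKM in DAUDI-WT, and CRYM, a thyroid hormone binding protein, 35.3 and 14.8; both were under 0.03 FPKM in every resistant library. PNMA2, NLRP7 and NXT2, an mRNA export cofactor, had 5.41, 5.55 and 18.5 FPKM in DOHH2-WT, against 0.512, 0.863 and 7.35 FPKM in DAUDI-WT.

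RPL13AP20, a ribosomal protein pseudogene, had 494 FPKM in DOHH2-WT and 189 FPKM in DAUDI-WT, with 154 to 178 in the resistant libraries. RPL21 had 16.9 FPKM in DOHH2-WT and 6.02 FPKM in DAUDI-WT. Both have near-identical copies elsewhere, so how reads were assigned to them is uncertain. DUSP1, a phosphatase of MAP kinases that is itself induced by stress, had 5.04 FPKM in DOHH2-WT and 1.66 FPKM in DAUDI-WT. ALPL, an alkaline phosphatase, had 17.1 FPKM in DOHH2-WT and 7.42 FPKM in DAUDI-WT. TAS1R3, FAM46C and COLCA2 stood at 6.70 to 10.1 FPKM in DOHH2-WT and 2.84 to 4.15 FPKM in DAUDI-WT.

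Immediate early genes were lower in DOHH2-WT in 2 cases. Of 32 names 20 were compared, with 0 higher, 2 lower, against 0.174% of all genes, and 18 neither, and a median of 0.01. EGR1 (chr5:137801181-137805004), a zinc finger factor, had 5.99 FPKM in DOHH2-WT and 18.1 FPKM in DAUDI-WT, which was 3.02 times as much in DAUDI-WT. Its resistant libraries were not alike: 5.76 and 1.05 FPKM in DOHH2-Cal and DOHH2-Ib, against 0.264 and 0.240 in DAUDI-Cal and DAUDI-Ib. EGR2, its paralogue, had 2.98 FPKM in DOHH2-WT and 9.24 FPKM in DAUDI-WT, and 0.117 or less in the resistant libraries.

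None of the AP-1 genes compared differed by 1, against 0.495% of all genes. JUN had 11.7 FPKM in DOHH2-WT and 9.87 FPKM in DAUDI-WT, ATF3 had 36.1 and 33.9, and JUNB differed by -0.59. FOS, below the level required, was at 0.426 FPKM in DOHH2-WT and 0.658 FPKM in DAUDI-WT. MYC, an early gene and a driver of Burkitt lymphoma, had 79.1 FPKM in DOHH2-WT and 66.7 FPKM in DAUDI-WT. Among 4 compared feedback genes of the DUSP and SPRY families, DUSP1 was higher, against 0.321% of all genes, and DUSP2, at 27.2 FPKM in DOHH2-WT and 41.6 FPKM in DAUDI-WT, differed by -0.59.

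The largest difference in this direction was that of RGS18, with 1.005 FPKM in DOHH2-WT and 5.30 FPKM in DAUDI-WT, from about 70 and 380 fragments; it was at 1.71 and 2.86 in DOHH2-Cal and DOHH2-Ib and listed at 0 in both resistant DAUDI libraries. IL32, a cytokine gene, had 16.2 FPKM in DOHH2-WT and 40.2 FPKM in DAUDI-WT, and the resistant libraries held 2.34 or less. CCL22, the ligand of CCR4, had 25.9 FPKM in DOHH2-WT and 53.4 FPKM in DAUDI-WT, and CXCL10, a ligand of CXCR3, 4.51 and 10.3. ATP12A, a proton pump, and SLC1A1, a glutamate transporter, had 7.56 and 7.16 FPKM in DOHH2-WT, against 18.4 and 17.2 FPKM in DAUDI-WT. CPM, a membrane carboxypeptidase, had 3.63 FPKM in DOHH2-WT and 9.19 FPKM in DAUDI-WT.

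LRRN3, ADIRF and the histone genes HIST1H3C and HIST1H2BL complete the 13, at 2.17 to 3.33 FPKM in DOHH2-WT and 5.59 to 7.71 FPKM in DAUDI-WT. Of all 37 genes, 13 were under 10 FPKM in their higher WT library.

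**Figure D3:**
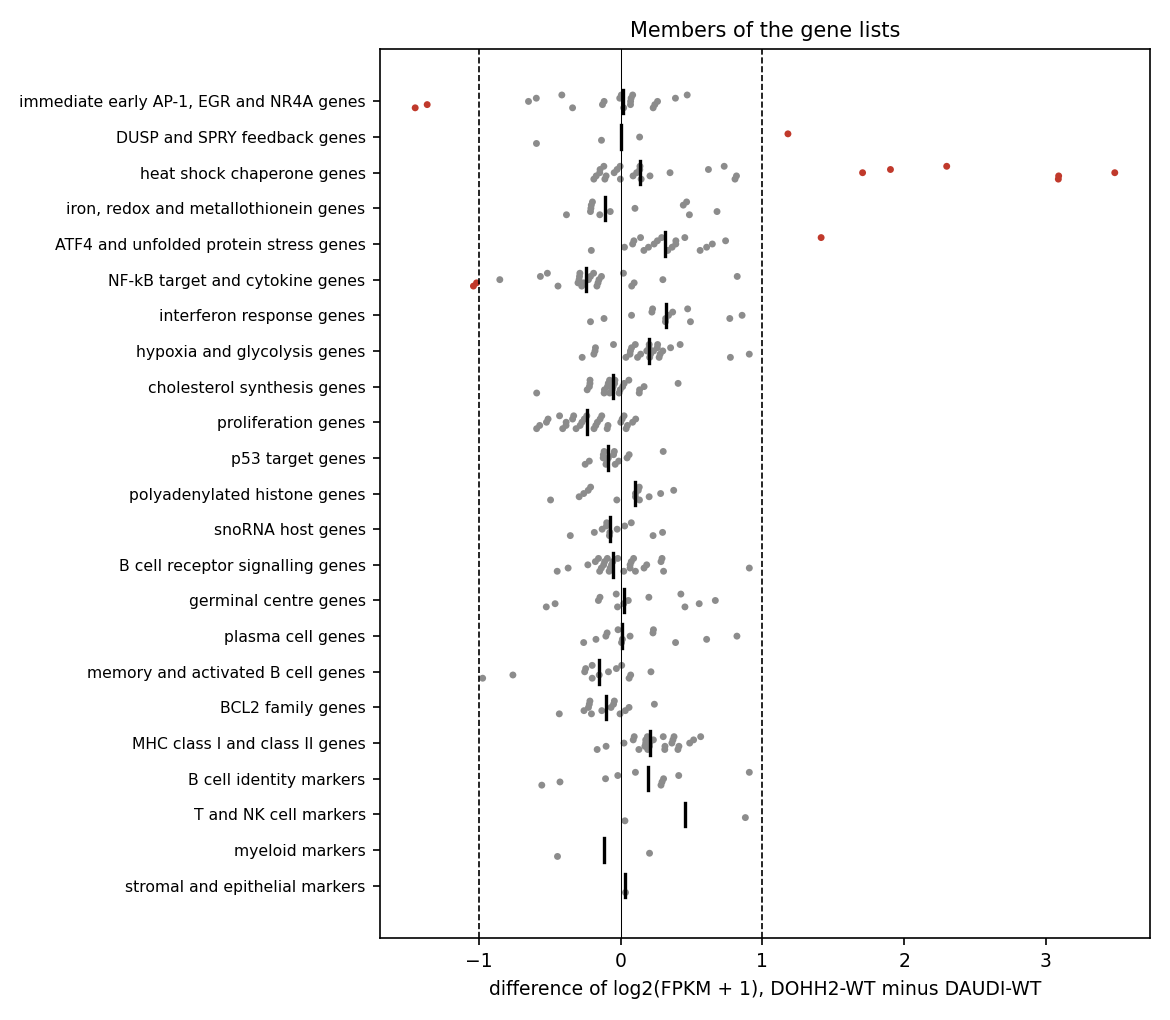
Each point is a compared member of a gene list, placed by the difference of log2(FPKM + 1), DOHH2-WT minus DAUDI-WT (x axis), with red points past 1 in either direction and a black bar at each list's median. Only the heat shock list has members past 2, while its median of 0.14 is close to those of other lists.

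Among the other stress lists, 1 gene passed the limit. Of 20 compared genes of the ATF4 and unfolded protein programmes, PHGDH was higher, against 0.321% of all genes, and 0 were lower, with 19 of 20 above 0 and a median of 0.31. ATF4, the factor that drives amino acid synthesis genes under stress, had 149 FPKM in DOHH2-WT and 88.8 FPKM in DAUDI-WT, a difference of 0.74. ASNS, asparagine synthetase, and XBP1, a factor of the unfolded protein response, differed by 0.65 and 0.61. None of the 12 iron, redox and metallothionein genes, the 27 hypoxia and glycolysis genes or the 15 p53 targets compared differed by 1. Over all genes the share was 0.495%. The medians of these 3 lists were -0.11, 0.20 and -0.09. NDRG1, a hypoxia gene, came nearest, with 13.7 FPKM in DOHH2-WT and 6.82 FPKM in DAUDI-WT, a difference of 0.91.

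Of 24 compared NF-kB targets and cytokines, 2 were lower in DOHH2-WT, CXCL10 and CCL22 (1 with median of ratios scaling and 0 with upper quartile scaling), against 0.174% of all genes, and 0 were higher, with 19 of 24 under 0 and a median of -0.24. CD69, an early activation antigen, differed by -0.85, and LTB, lymphotoxin beta, by 0.82, with 13.8 FPKM in DOHH2-WT and 7.35 FPKM in DAUDI-WT. None of the 13 interferon genes differed by 1 (median 0.32), nor did any of the 25 MHC genes, of which 23 were above 0 (median 0.21) and HLA-B differed most, by 0.57. Of 29 proliferation genes none differed by 1, and 22 were under 0 (median -0.24), with the replication licensing genes MCM4 and MCM7 at -0.59 and -0.57. Beside these counts and medians, 0.495% of all genes differed by 1, and the median over all genes was -0.03.

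The B cell programmes held no gene past 1, against 0.495% of all genes. At that share, lists of this size would mostly hold none. Compared were 27 genes of B cell receptor signalling, 13 germinal centre genes and 13 plasma cell genes. So were 13 memory and activation genes, 14 BCL2 family genes and 10 B cell markers. The medians of these lists were -0.05, 0.02, 0.01, -0.15, -0.10 and 0.20 in that order, beside -0.03 over all genes. BLK, a SRC family kinase below the receptor, had 10.4 FPKM in DOHH2-WT and 5.05 FPKM in DAUDI-WT, a difference of 0.91. The drug targets BTK and PIK3CD were at 72.1 and 34.3 FPKM in DOHH2-WT and 68.4 and 36.7 FPKM in DAUDI-WT. None of the 24 cholesterol synthesis genes, 14 polyadenylated histone genes or 12 snoRNA host genes compared differed by 1.

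Genes that separate the lines were then taken from the resistant libraries, which left the WT libraries out of the choice. Resistant DOHH2 and resistant DAUDI differed by 3 or more in the same direction in all 4 pairs for 239 of 8566 genes (2.79%), 102 higher in DOHH2 and 137 lower. Of these line genes 126 reached 5 FPKM in DOHH2-WT or DAUDI-WT, and 3 of the 126 (2.38%) differed by 1 between DOHH2-WT and DAUDI-WT, against 0.495% of all genes, while 113 lay within 0.5. The count of 3 became 6 of 205 with a pseudocount of 0.1, 1 of 29 with a pseudocount of 5 and 2 of 24 (8.33%) for line genes that differed by 5 or more. Their median absolute difference was 0.181 between the WT libraries, against 0.127 over all genes, and 3.82, as the smallest of 4 pairs, between the resistant ones. Over the 53 line genes higher in resistant DOHH2 the WT median was -0.002, and over the 73 lower ones it was 0.05.

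The 3 exceptions were PHGDH, which differed in the direction of the resistant lines, and PLAC8 and FAM46C, which differed against it. FAM46C, a poly(A) polymerase gene, had 6.92 FPKM in DOHH2-WT and 2.88 FPKM in DAUDI-WT, but 0.0308 and 0.0373 in DOHH2-Cal and DOHH2-Ib, against 7.74 and 7.54 in DAUDI-Cal and DAUDI-Ib.

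**Figure D4:**
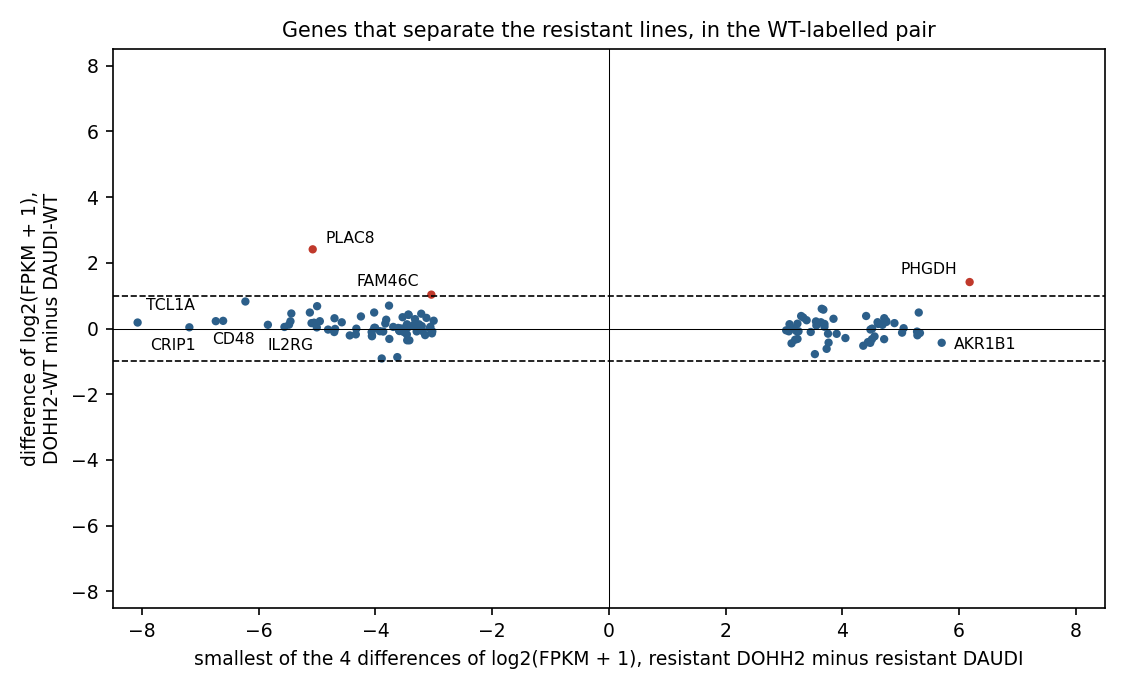
Each point is 1 of 126 line genes, placed by the smallest of its 4 differences of log2(FPKM + 1) between resistant DOHH2 and resistant DAUDI libraries (x axis) and by its difference between DOHH2-WT and DAUDI-WT (y axis, same scale). Red points are the 3 genes past 1 in the WT pair, dashed lines stand at 1 and -1, and the other 123 genes lie between them.

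Both WT libraries held line genes of either side at once. TCL1A, an AKT co-activator of B cells, had 390 FPKM in DOHH2-WT and 344 FPKM in DAUDI-WT, with 0.0494 and 0 in DOHH2-Cal and DOHH2-Ib, against 282 and 320 in DAUDI-Cal and DAUDI-Ib. CD48, a ligand of CD244, had 132 FPKM in DOHH2-WT and 113 FPKM in DAUDI-WT, with 0.497 or less in resistant DOHH2 and 159 to 175 in resistant DAUDI. IL2RG, the common gamma chain of cytokine receptors, had 60.3 and 55.7 FPKM in DOHH2-WT and DAUDI-WT, with 0.317 or less in resistant DOHH2 and 74.6 to 84.6 in resistant DAUDI. CRIP1, a LIM domain protein, had 116 FPKM in DOHH2-WT and 113 FPKM in DAUDI-WT. For these genes DOHH2-WT stood with the resistant DAUDI libraries.

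BCL2, the survival gene that the DOHH2 line carries in a translocation, had 51.6 FPKM in DOHH2-WT and 59.7 FPKM in DAUDI-WT, with 53.5 and 58.2 in DOHH2-Cal and DOHH2-Ib, against 0.228 and 0.395 in DAUDI-Cal and DAUDI-Ib. S100A10 had 37.3 FPKM in DOHH2-WT and 39.9 FPKM in DAUDI-WT, with 38.9 and 60.2 in resistant DOHH2 and 0.0238 or less in resistant DAUDI. HMGN3, a nucleosome binding protein, had 57.7 FPKM in DOHH2-WT and 63.5 FPKM in DAUDI-WT, and SDCBP, the adaptor syntenin, 66.6 and 47.2. For these genes DAUDI-WT stood with the resistant DOHH2 libraries.

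Over all 239 line genes, both WT libraries were nearer to the same resistant line in 226 cases, to DOHH2 in 113 and to DAUDI in 113. In 5 cases each WT library was nearer to its own line label, and in 8 each was nearer to the other. Of the 239 genes 113 were under 5 FPKM in both WT libraries, and 67 were under 1 FPKM in both; UCHL1, a deubiquitinase gene at 69.7 and 55.9 FPKM in DOHH2-Cal and DOHH2-Ib, and BTNL9 were listed at 0 in both WT libraries.

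Of 22 candidate line markers 14 were compared, none differed by 1, against 0.495% of all genes, and the median was 0.12. CD44, the hyaluronan receptor, had 279 FPKM in DOHH2-WT and 277 FPKM in DAUDI-WT, GZMB, granzyme B, 554 and 451, and VIM, vimentin, 182 and 163. All 3 were at 0.334 FPKM or less in every resistant library. CDKN2A, CDKN2B and UCHL1 were listed at 0 in both WT libraries, and MTAP, the neighbour of CDKN2A, at 0 in DOHH2-WT and 0.00585 FPKM in DAUDI-WT, with 6.36 and 6.19 in DAUDI-Cal and DAUDI-Ib. UGT2B17, a glucuronosyltransferase gene often deleted in whole, came nearest to the limit, with 7.13 FPKM in DOHH2-WT and 3.64 FPKM in DAUDI-WT, a difference of 0.81.

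Some germinal centre markers shared by resistant libraries of both lines were low in both WT libraries, while other germinal centre genes were not. Of the 22 names on the germinal centre list, 16 were at 1 FPKM or more in DOHH2-WT and 15 in DAUDI-WT, against 21 in each resistant library. RGS13 was at 52.2 FPKM in DOHH2-WT and 75.5 FPKM in DAUDI-WT. MME, the CD10 gene, was at 0.0260 FPKM in DOHH2-WT and 0.117 FPKM in DAUDI-WT, with 51.4 to 76.6 in the 4 resistant libraries. BACH2, a repressor of plasma cell fate, was at 0.0252 FPKM in DOHH2-WT and 0.182 FPKM in DAUDI-WT, with 46.4 to 109 in the resistant libraries. CD38, GCSAM, MYBL1 and STAP1 were at 0.341 to 1.47 FPKM in DOHH2-WT and 0.348 to 1.17 FPKM in DAUDI-WT, with 14.4 to 167 in the resistant libraries. DOHH2-WT and DAUDI-WT thus had the same of these markers low.

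Differences under 1 were not spread evenly over the genome. In 144 windows of 20 Mb with at least 15 compared genes, the median difference ran from -0.28 to 0.12, with a median of -0.04, and in 146 such windows between DOHH2-Ib and DOHH2-Cal it ran from -0.14 to 0.11. Between DAUDI-Ib and DAUDI-Cal it ran wider, from -0.51 to 0.51 in 147 windows. On chromosome 7 past 80 Mb (hg19), the median over 186 genes was -0.24 and 162 of them were lower in DOHH2-WT, against -0.06 over the 167 genes before 80 Mb, of which 105 were lower. On chromosome 10 past 80 Mb the median over 157 genes was -0.19, with 131 lower. On chromosome 18 from 40 to 60 Mb it was -0.18 over 34 genes, with 33 lower. Over all placed genes 55.6% were lower. LRRN3 was the single gene of the chromosome 7 stretch among the 37. Between DOHH2-Ib and DOHH2-Cal that stretch had a median of -0.04, with 126 of 208 genes under 0. Between DAUDI-Ib and DAUDI-Cal the median was -0.005 in that stretch and -0.09 before it, beside a median of 0.20 over windows. Chromosome 7 thus stood apart in that pair as well, but on both sides of 80 Mb and more so before it. In the WT pair the shift lay mostly past 80 Mb. The windows and stretches were chosen after the values were seen.

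**Figure D5:**
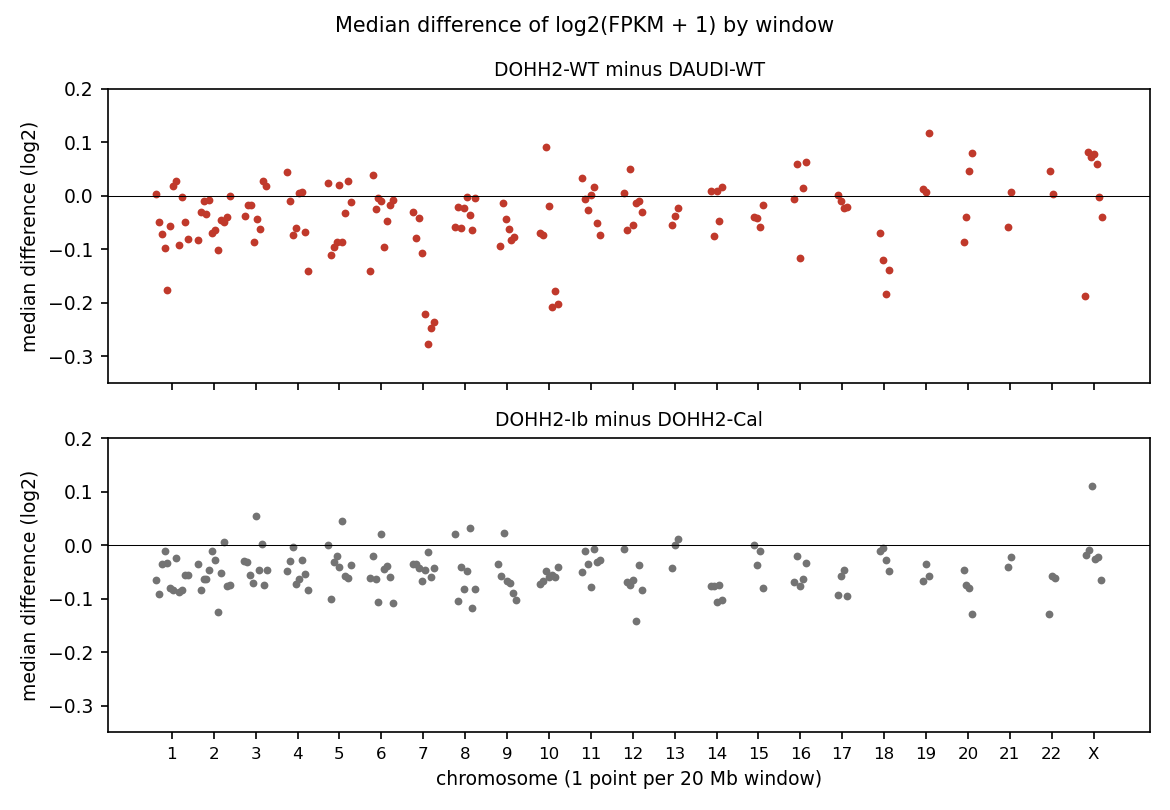
Median difference of log2(FPKM + 1) (y axis) in windows of 20 Mb along each chromosome (x axis), 1 point per window with at least 15 compared genes, for DOHH2-WT minus DAUDI-WT (top) and DOHH2-Ib minus DOHH2-Cal (bottom). In the top panel the lowest points, down to -0.28, are on chromosome 7; in the bottom panel no window is under -0.14.

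Isoform use was close as well. Among 2372 genes with 2 or more isoforms and 10 FPKM or more in both WT libraries, 55 had an isoform whose share of the gene's FPKM differed by 20 percentage points or more (2.32%), and 2 passed 50 points. For DOHH2-Ib against DOHH2-Cal the count was 63 of 2448 genes (2.57%), and for DOHH2-Cal against DAUDI-Cal 192 of 2164 (8.87%). Shifts past 50 points were also found in 2 genes between DOHH2-Ib and DOHH2-Cal and in 3 between DAUDI-Ib and DAUDI-Cal. The largest there were 95.8 and 83.2 points, against 87.0 in the WT pair. The 2 genes past 50 points in the WT pair were RAP1GDS1, an exchange factor for small GTPases, and VPS29, a retromer subunit. In RAP1GDS1, the isoform NM_001100426 took 82.0% in DOHH2-WT and 0.306% in DAUDI-WT, and NM_001100427 took 0.0460% in DOHH2-WT and 87.0% in DAUDI-WT. In VPS29, NM_057180 took 60.9% in DOHH2-WT and 0.330% in DAUDI-WT. Neither gene was among the 37, and no interval is given, since an isoform's share is an estimate from reads that isoforms have in common.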

How the data were processed

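PolyA RNA was sequenced from 6 cultures with a directional kit, per the labels' protocols. Per the submitters' processing notes, bcl2fastq, cutadapt, TopHat2 and Cufflinks were used with hg19; no version is named there. The deposited tables list FPKM for 43490 RefSeq isoforms per library, which the authors scaled to isoform length and depth. A coverage signal is also deposited, per the file headers, without scaling to depth. The 528 isoforms that name no gene were dropped, as was any gene whose estimate failed; of 6 such genes in the pair, 3 were listed at 0 in 1 WT library and would have passed the limit. Some genes are not reported here by name. The deposited bounds were not used, since 1857 values in DOHH2-WT and 1811 in DAUDI-WT lie outside their own bounds.

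FPKM were summed by gene, log2(FPKM + 1) was taken, and DOHH2-WT minus DAUDI-WT was formed with Python 3.11.15, pandas 2.3.3 and numpy 2.4.6 (figures with matplotlib 3.10.9), checked on simulated data. In genes with 1 isoform of 1500 nt or more, FPKM times length falls in steps of 1 fragment; of values from 0.5 to 5.5 steps, 78.4% in DOHH2-WT and 78.2% in DAUDI-WT lay within 0.15 of a whole number. Fragment numbers come from these steps, are estimates, and are too high for short isoforms. Promoters were matched by symbol to RefSeq on GRCh38.p14, for 16 of 24 higher and 11 of 13 lower genes.

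The 25 lists hold 542 names; 540 occur in the tables and 356 were compared. The comparison, its limits and the lists were chosen with earlier results of these data known. Genes are named by a rule: up to 20 per direction past 1, up to 4 per list, 12 line genes per direction, all candidate line markers, and the 6 isoforms that differ most in share; other names (the remaining chaperones, early genes and markers, ZFAND2A, and the last genes past 1) were chosen after their values were seen. Alternatives were other pseudocounts, level and length filters, scalings, isoform choices and limits.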

Additional observations from a re-analysis of the deposited data

Results flagged for a closer look

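For 9 genes the difference of log2(FPKM + 1) between DOHH2-WT and DAUDI-WT was past 1 in one direction, while all 4 pairs of a resistant DOHH2 and a resistant DAUDI library were past 1 in the other. With 1 library per group the difference between these contrasts was not tested. Higher in DOHH2-WT and lower in resistant DOHH2 were PLAC8 (2.41 in the WT pair, -5.08 to -5.35 in the resistant pairs), HSPA7 (2.60, -1.83 to -1.91), SQRDL (2.21, -1.64 to -4.74) and HSPB1 (1.90, -2.63 to -4.05). So were TAS1R3 (1.11, -1.97 to -2.10), ALPL (1.10, -1.18 to -2.03) and FAM46C (1.03, -3.04 to -3.08). Lower in DOHH2-WT and higher in resistant DOHH2 were RGS18 (-1.65, 1.44 to 1.95) and HIST1H3C (-1.06, 1.14 to 1.17). The 4 resistant pairs share libraries and are not independent.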

How the results depend on the processing

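No paired analysis was possible because each group is 1 library, and no library could be left out for the same reason. The 6 heat shock genes stayed past 1 with every pseudocount, scaling and isoform choice, and none of the 37 genes changed direction. Most settings could not have changed it: filters leave a gene's difference as it is, and a pseudocount cannot reverse one. The scaling factors of DOHH2-WT over DAUDI-WT were 0.982 (median of ratios) and 0.968 (upper quartile), too near 1 to reverse one. The 24 higher, 13 lower and 37 differing genes became 14, 2 and 16 with a pseudocount of 5, 39, 21 and 60 with genes at 1 FPKM or with no filter on FPKM, 13, 2 and 15 with genes at 20 FPKM, 60, 50 and 110 with no filter on isoform length, and 8, 0 and 8 at a limit of 2. With other scalings they were 26, 11 and 37 (median of ratios) and 26, 9 and 35 (upper quartile). The NF-kB list then had 1 and 0 members lower in place of 2. Judged by their difference alone, without regard to the filters, 16 of the 37 genes stayed past 1 with every pseudocount, scaling and isoform choice. With a pseudocount of 5, 21 fell under 1, and the lower genes that stayed past 1 were EGR1 and IL32. The 3 line genes past 1 became 6 (of 205) with a pseudocount of 0.1, 1 (of 29) with a pseudocount of 5, 6 (of 129) with no filter on length and 6 (of 258) with a line difference of 2, and 2 (of 24) with a line difference of 5. They became 5 (of 159) or 6 (of 178) when the lines were taken from the idelalisib-resistant or the ibrutinib-resistant pair alone, settings added after the data were seen. The median of the chromosome 7 stretch ran from -0.27 to -0.19, except with no filter on FPKM, where it was -0.01. The cause of these shifts was not tested beyond how each setting is built. Depth is known by estimate only, and 13 of the 37 genes were under 10 FPKM in their higher library, where few fragments stand behind a value.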

Other observations

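Genes under the level required of the comparison held globins. HBB had 3.39 FPKM in DOHH2-WT and 0.0720 FPKM in DAUDI-WT, HBA1 had 2.05 FPKM in DOHH2-WT and was listed at 0 in DAUDI-WT, and HBA2, its near-identical copy, had 1.96 FPKM and was listed at 0. In the 4 resistant libraries these genes were at 0.0691 FPKM or less. S100A9, a myeloid gene, had 1.30 FPKM in DOHH2-WT and was listed at 0 in DAUDI-WT, with 0 to 1.58 in the resistant libraries. What part other cells or RNA had in these values was not tested.

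After the genes with a share difference past 50 points, the next by size were FCGR2B, an inhibitory Fc receptor, whose isoform NM_004001 took 26.9% in DOHH2-WT and 71.8% in DAUDI-WT, and TOX2, whose isoform NM_001098796 took 0.142% in DOHH2-WT and 41.8% in DAUDI-WT.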
